A study of Mus musculus with 9 samples.

Results

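The regions described here are 802 control H3K27me3 domains that each hold 2 or more Phf19 sites, out of 8280 control H3K27me3 sites in all. H3K27me3 is trimethylated lysine 27 of histone H3, a mark of silenced genes, and Phf19 is a protein that binds chromatin and associates with the enzyme that writes the mark. The domains were chosen by the positions in the Phf19 and control H3K27me3 lists: a domain was taken in when at least 2 sites of the Phf19 list each overlapped it by at least 1 base. Another 974 control sites held 1 Phf19 site and 6504 held none. The measurements are chromatin immunoprecipitation followed by sequencing (ChIP-seq) in E14Tg2A, a mouse embryonic stem cell line grown on gelatin without feeder cells in serum with leukemia inhibitory factor. Phf19 (2 biological replicates, sites found in both) and Suz12 (1 library) were mapped in wild-type cells. H3K27me3 was mapped in 1 library of cells with a random control hairpin (shRd, labelled wild type) and in 1 library of cells with a hairpin against Phf19 (shPhf19, labelled Phf19-depleted). How far Phf19 fell, and whether the hairpin cells were 1 clone or a pool: not given in the sources used here.

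Polycomb repressive complex 2 (PRC2) places methyl groups on lysine 27 of histone H3. Its core subunits include the enzyme Ezh2, the reader Eed and the scaffold Suz12. Phf19 is a Polycomb-like accessory subunit with a Tudor domain that binds methylated lysine 36 of histone H3. In embryonic stem cells PRC2 is known to sit at CpG-rich promoters of genes that steer development and to keep them silent until cells differentiate.

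Each list gives only where a site starts and ends in mouse build mm9, and read depth is unknown. Whether a domain is listed after depletion therefore says whether a site was called there, and not how much of the mark was left. Because each H3K27me3 condition is 1 library, differences between them could not be checked against replicates, and no p-value was computed. The labels give the H3K27me3 antibodies of both libraries different catalogue numbers, and the part of this in the results was not tested. Intervals are exact 95% intervals unless named otherwise. They cover counting error only and treat domains, Phf19 sites and pairs of neighbouring Phf19 sites as independent. Many Phf19 sites and pairs come from the same domain, so intervals on sites and pairs are too narrow by an unknown amount.

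The domains with the most Phf19 sites show how the sites are laid out. The domain with the highest number, chr6:52171839-52210635, was 38.8 kb wide and held 15 Phf19 sites and 10 Suz12 sites. From general knowledge of mm9, not from the lists, it lies in the HoxA cluster, a row of homeobox genes that set position along the body axis. Its Phf19 sites ran from 52174035 to 52210437, across 93.8% of its length, and were between 351 bp and 2976 bp wide. The median distance between neighbouring centres was 1.92 kb, and the longest was 6343.5 bp. All 15 Phf19 sites lay on Suz12, and 12 of them overlapped an shPhf19 H3K27me3 site.

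The next in number was chr11:96180330-96216880, in the HoxB cluster, with 14 Phf19 and 12 Suz12 sites over 36.6 kb. There 8 of the 14 Phf19 sites overlapped an shPhf19 site. A much narrower domain, chr9:69602273-69619066 (16.8 kb), also held 14 Phf19 sites, which made it more densely occupied, at 0.834 sites per kb against 0.383. Only its central Phf19 sites, the fourth to the tenth in order, met an shPhf19 site, while the first 3 and the last 4 did not.

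The domain chr2:105498348-105517580 (19.2 kb), at Pax6, a gene for a transcription factor of eye and brain development, held 13 Phf19 sites. A first Phf19 site of 1400 bp at 105500898 to 105502298 stood apart from the other 12, whose centres followed one another across the remaining part of the domain after a step of 5549.5 bp. All 13 lay on Suz12. The first 10 overlapped an shPhf19 site and the last 3, from 105514818 to 105516983, did not. The domain chr17:86005649-86020704 held 12 Phf19 sites, which covered 62.1% of it, and 7 of them overlapped an shPhf19 site. The last of these 7 crossed the domain's edge and met its shPhf19 site outside the domain.

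**Figure D1:**
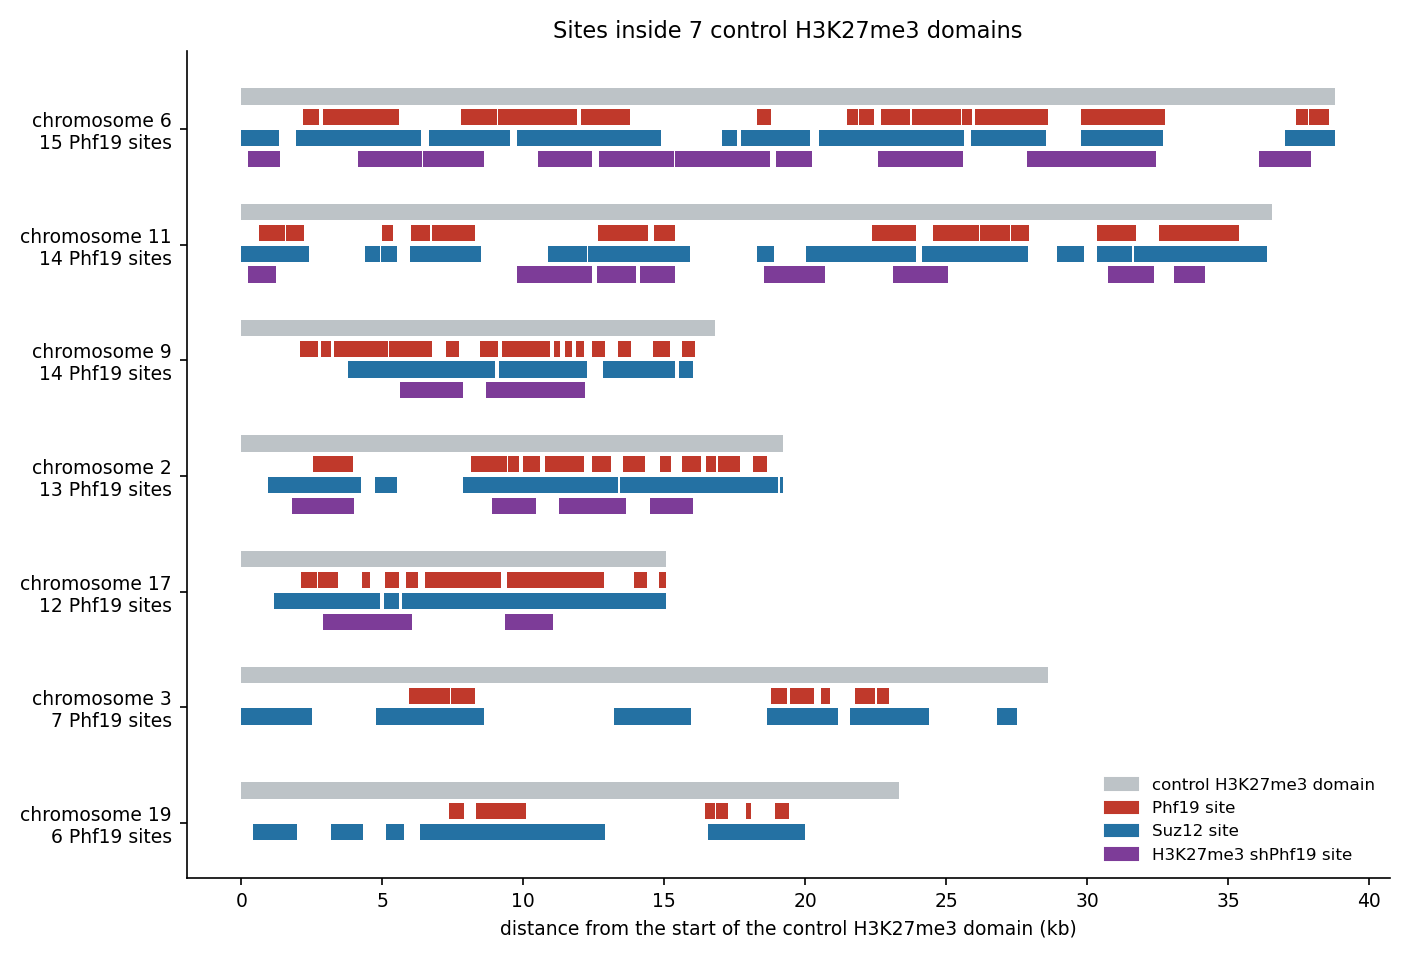
Phf19, Suz12 and shPhf19 H3K27me3 sites inside the 5 domains with the most Phf19 sites and inside the 2 widest domains no longer listed after depletion (bottom), with the distance from the domain's start in kb on the horizontal axis. Each bar is a listed site, drawn only where it lies inside the domain. The shPhf19 bars cover 62.3% of the domain on chromosome 6, between 32.3% and 39.8% of the next 4, and none of the last 2.

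The number of Phf19 sites per domain fell off steeply. There were 447 domains with 2 sites, 165 with 3, 72 with 4, 43 with 5, 31 with 6 and 17 with 7. Another 27 held 8 or more, and 14 held 10 or more. At the edge of the rule, the 447 domains with 2 sites had a median width of 4339 bp (interquartile range 3067 to 5946), and the 974 domains with 1 site just outside it had 3369 bp (2321 to 4582.5). All 802 domains together had a median of 5596.5 bp, a range from 743 bp to 38.8 kb and a summed length of 5793 kb. They were 9.69% of the control sites and 23.8% of the control length.

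Width and number rose together. The median width was 6313 bp with 3 sites, 8049 bp with 4, 12198 bp with 5 and 15490 bp with 6 or more. The number per kb hardly differed in median between 2 sites (0.461), 3 (0.475), 4 (0.497) and 5 or more (0.443). In the 27 domains with 8 or more sites it was higher, at 0.568 (interquartile range 0.449 to 0.670). It was 0.297 in domains with 1 site. Phf19 covered a median of 26.8% of the domain (19.6 to 36.9) at 2 sites, 34.3% at 3, 38.9% at 4 and 39.9% (27.6 to 51.0) at 5 or more. Since the rule used the Phf19 and control H3K27me3 lists, these values are descriptions.

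**Figure D2:**
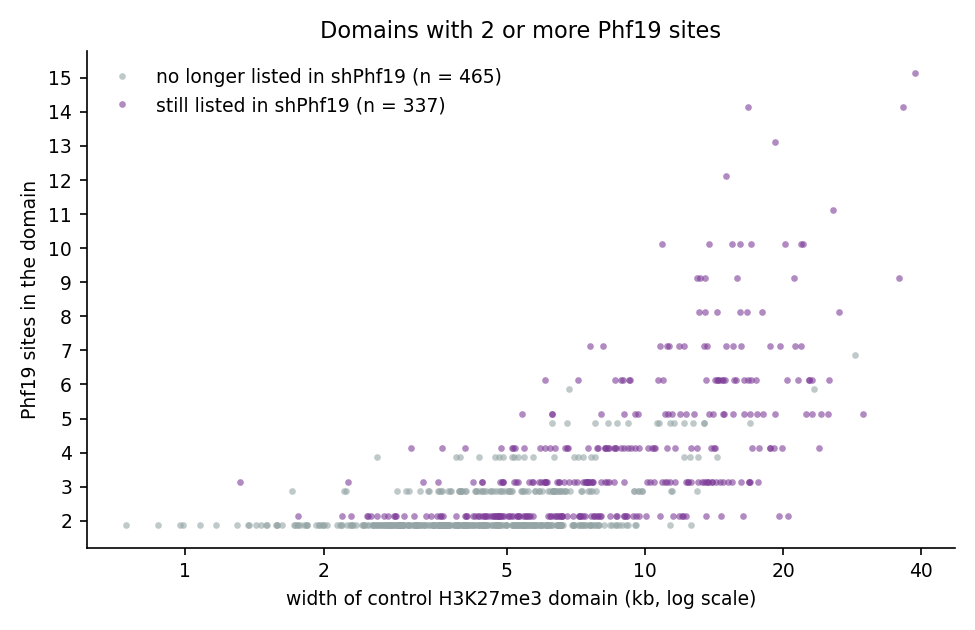
Width in kb (log scale) against the number of Phf19 sites for each of the 802 domains, in purple where an shPhf19 H3K27me3 site overlapped the domain (337) and in grey where none did (465). The points run from narrow domains with 2 sites to the 38.8 kb domain with 15, and all 27 domains with 8 or more sites are purple.

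Neighbouring Phf19 sites in a domain lay close together. Over 1664 neighbouring pairs the median distance between centres was 1027.5 bp (interquartile range 706.9 to 1561.1) and the median gap from the end of one site to the start of the next was 180 bp (83 to 525.5). The gap was under 200 bp in 899 pairs, 54.0%, and from 200 bp to under 500 bp in a further 334. Gaps of 5000 bp or more occurred in 37 pairs, 2.22%. The median gap was 172 bp in domains with 2 sites and 196 bp in those with 5 or more, while the 90th percentile rose from 810.2 bp to 2551 bp. Short gaps were thus common at every number, and long gaps were added in the domains with many sites.

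How many domains count as holding several Phf19 sites depended on these short gaps. When Phf19 sites within 500 bp of each other were joined and counted once, 300 domains held 2 or more, against 802. Whether close neighbours are separate binding sites or parts of one that the peak caller divided was not tested.

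The tightest domains with 3 or more sites were chr3:141126477-141131113 (median centre distance 467 bp), chr5:24602804-24609027 (468 bp) and chr9:20528585-20533727 (470 bp). Each held 3 Phf19 sites within a short part of its length, between 20.7% and 27.4%, and none of the 3 was listed after depletion. The loosest were chr5:120279245-120295466 (5.27 kb, 3 sites), chr18:37890549-37920416 (5.23 kb, 5 sites) and chr8:123595306-123607912 (4.39 kb, 3 sites). All 3 of these were still listed. The tight domains were 4.64, 6.22 and 5.14 kb wide, and the loose ones 16.2, 29.9 and 12.6 kb. Of all domains with 2 or more Phf19 sites, 33.3% were still listed from 4.5 to 6 kb and 49.2% from 6 to 9 kb. The share was 73.8% from 9 to 14 kb and 95.5% at 14 kb or more. Spacing apart from width was not tested.

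Phf19 sites lay toward the middle of the domain. Over 2466 placements (2438 distinct sites, 52.6% of the Phf19 list, of which 28 were shared by 2 of the domains), 26.7% of centres fell in the middle 20% of the domain's length, and 12.3% fell in the first and last 10% together. Inner sites, those with a Phf19 neighbour on both sides in the domain, fell in the middle 20% in 32.7% of cases and in the first and last 10% in 3.36%. For the outermost sites the share in the first and last 10% was 17.1%. Inner sites lie between the outermost by definition, so this contrast is in part fixed. In domains with 1 Phf19 site, 29.6% of centres fell in the middle 20%. From the first Phf19 site to the last, the sites spanned a median of 34.6% of the domain at 2 sites (interquartile range 26.2 to 46.2), 48.8% at 3, 60.5% at 4 and 71.0% at 5 or more (56.7 to 81.5).

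A minority of Phf19 sites crossed the border of the mark. A Phf19 site reached across an edge in 189 of the 802 domains, 23.6%, and across both edges in 8. In domains with 1 Phf19 site the share was 22.0%. Among Phf19 sites of the domains described here, 72 overlapped a pair of control H3K27me3 sites and so bridged the gap between them. Another control H3K27me3 site lay within 1 kb of 440 of the 802 domains, 54.9%. The like share over all control sites was not computed.

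**Figure D3:**
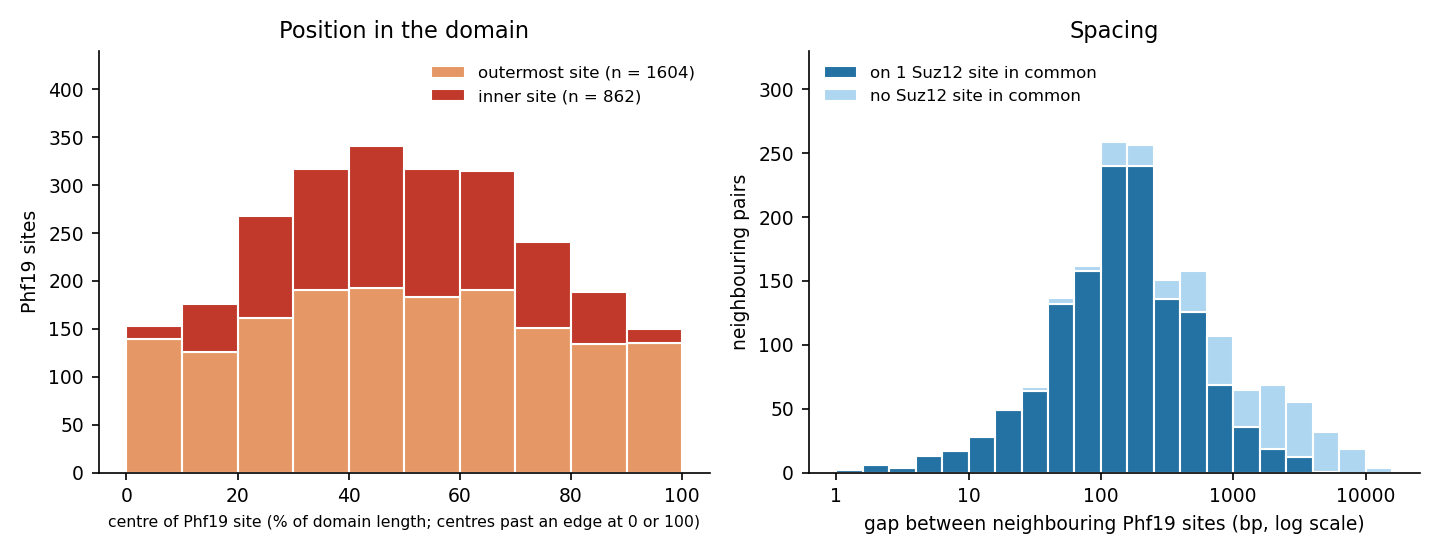
Left, centres of Phf19 sites along the domain (horizontal axis, percent of domain length), stacked for outermost and inner sites, highest in the middle and lowest at both ends. Right, gaps between neighbouring Phf19 sites in bp (log scale), coloured by whether both sites of a pair share a Suz12 site; the gaps centre near the median of 180 bp, and sharing fades beyond 1000 bp.

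Individual Phf19 sites were wider here than elsewhere in the list. Their median width was 589 bp (420 to 965.25), against 519 bp (405 to 792.5) in domains with 1 Phf19 site and 384 bp (311 to 446) outside control H3K27me3. In domains with 5 or more sites the median was 662.5 bp (435.75 to 1109.5). The interquartile ranges of the first 2 groups overlap over most of their length.

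The first question on data the rule did not use was whether PRC2 itself occupied these domains. Suz12, the PRC2 scaffold subunit, was listed in nearly all of them: 800 of 802, 99.8% (lower bound 99.1%). Over all control sites the share was 69.6%. Domains with 1 Phf19 site reached 96.2% (94.8 to 97.3), a difference of 3.55 percentage points (Newcombe 95% interval 2.33 to 4.95). Weighted to the same mix of 10 width classes, the difference was 0.882 points (standard error 0.268, interval 0.357 to 1.41). All 355 domains with 3 or more Phf19 sites held Suz12.

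Suz12 also covered more of each domain than where there was 1 Phf19 site. The median covered share was 65.4% (interquartile range 53.8 to 78.6), against 58.4% (44.3 to 72.7). Between 6 and 9 kb of width it was 62.9% (55.2 to 75.5) with 2 or more Phf19 sites and 52.3% (42.3 to 67.7) with 1. Domains of that width with Suz12 and no Phf19 had 43.3% (32.3 to 59.3). The order was the same between 3 and 4.5 kb, with 66.0%, 59.0% and 51.2%, and the interquartile ranges of neighbouring groups overlapped in both classes.

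With more Phf19 sites, Suz12 was listed in more pieces. A single Suz12 site was found in 357 of 447 domains with 2 Phf19 sites, 79.9%. At 5 or more Phf19 sites, 22 of 118 domains had a single Suz12 site and 81.4% had 2 or more, up to 12. Both lists counted more pieces in wider domains, so the share of length is the steadier measure: Suz12 covered a median of 62.9% at 2 Phf19 sites, 66.6% at 3, 71.8% at 4 and 70.0% at 5 or more.

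Phf19 sites of these domains lay on Suz12 in 2358 of 2438 cases, 96.7% (95.9 to 97.4), against 73.3% of the whole Phf19 list. In domains with 1 Phf19 site it was 92.8% (90.9 to 94.4). Seen from Suz12, 814 of the 1325 Suz12 sites in these domains, 61.4%, held 2 or more Phf19 sites, with 14 the highest number. Suz12 sites were wider the more Phf19 sites they held: the median was 3594.5 bp for these 814, 1959 bp for the 223 with 1 Phf19 site and 1221 bp for the 288 with none. A wide Suz12 site also has more bases with which to overlap Phf19 sites, and the part of this in the order was not tested. Phf19 and Suz12 centres were a median of 695.25 bp apart (interquartile range 328.4 to 1322.1).

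Neighbouring Phf19 sites usually shared a Suz12 site. This held for 1352 of 1664 pairs, 81.2% (79.3 to 83.1). The share fell with the gap, from 95.6% (94.0 to 96.8) under 200 bp to 70.6% (63.5 to 77.0) from 500 bp to under 1000 bp and 19.8% (12.7 to 28.7) from 2000 bp to under 5000 bp. At 5000 bp or more it was 0 of 37 pairs (upper bound 9.49%), although both sites of all 37 pairs were on Suz12. Widely spaced Phf19 sites thus lay on separate Suz12 sites of the same H3K27me3 domain. A shared Suz12 site must reach across the gap, so the fall is in part fixed. The median width of Suz12 sites in these domains was 2766 bp.

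The second question was what remained listed after depletion of Phf19. An shPhf19 H3K27me3 site overlapped 337 of the 802 domains, 42.0% (38.6 to 45.5), and 465 were no longer listed. Over all control sites, 8.96% were still listed. Among domains with 1 Phf19 site it was 155 of 974, 15.9% (13.7 to 18.4), a difference of 26.1 points (Newcombe 22.0 to 30.2). Of all 1180 shPhf19 sites, 597, or 50.6%, lay on the 802 domains.

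The share still listed rose with the number of Phf19 sites. It was 24.4% (20.5 to 28.6) at 2 sites, 47.3% (39.5 to 55.2) at 3, 69.4% (57.5 to 79.8) at 4, 65.1% (49.1 to 79.0) at 5 and 96.0% (88.8 to 99.2) at 6 or more. The steps from 2 to 3 (22.9 points, Newcombe 14.3 to 31.4), from 3 to 4 (22.2, 8.48 to 34.2) and from 5 to 6 or more (30.9, 16.5 to 46.1) had intervals above 0. That from 4 to 5 did not (-4.33, -22.0 to 12.6). All 27 domains with 8 or more Phf19 sites were still listed (lower bound 87.2%).

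Width rose along the same series, and part of the difference went with it. Weighted to the same mix of 10 width classes, domains with 2 or more Phf19 sites stayed listed 14.4 points more often than those with 1 (standard error 2.68, interval 9.17 to 19.7), against 26.1 points unweighted. For exactly 2 sites against 1 the weighted difference was 2.06 points (-2.87 to 6.98), so that no difference could be told from counting error. For 3 or more against 1 it was 29.98 points (22.5 to 37.4). The widest of the 10 classes reached from 5204 bp to 38.8 kb, and in it the domains described here had a median of 8143 bp against 6186 bp with 1 Phf19 site. With 6 fixed classes that split this range, chosen after seeing the data, the difference for 2 or more sites was 9.12 points (3.01 to 15.2). That comparison left out 88 domains of 14 kb or more, since no domain with 1 site was that wide. Domains with 3 or more sites had a median width of 8357 bp. For them the difference from 1 site was not weighted by the finer classes, and the part of width left in the 29.98 points was not tested.

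Within single width classes the picture differed. From 3 to 4.5 kb, 26 of 172 domains with 2 or more Phf19 sites were still listed, 15.1%, and 16.1% of 317 with 1, a difference of -0.972 points (Newcombe -7.36 to 6.14). From 6 to 9 kb the shares were 38.2% (28.1 to 49.1) with 1 site, 36.0% (26.0 to 47.1) with 2 and 61.3% (49.4 to 72.4) with 3 or 4. Domains of 6 to 9 kb with 3 or more sites exceeded those with 2 by 25.5 points (10.8 to 38.7). From 9 to 14 kb, 68.4% (43.4 to 87.4) were still listed with 2 sites, and 63 of 84 with 3 or more, a difference of 6.58 points (-12.6 to 30.4). At 14 kb or more, 84 of 88 domains were still listed, including all 4 with 2 sites and 60 of 63 with 5 or more. For 2 or more sites against 1, the interval lay above 0 under 3 kb (7.07 points, 1.38 to 14.7) and from 9 to 14 kb (28.3 points, 0.233 to 53.7, with 11 domains of 1 site), and held 0 in the 3 classes between. The difference between 2 sites and 3 or more was larger than counting error in 1 width class, 6 to 9 kb, and its interval held 0 in the other 5.

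**Figure D4:**
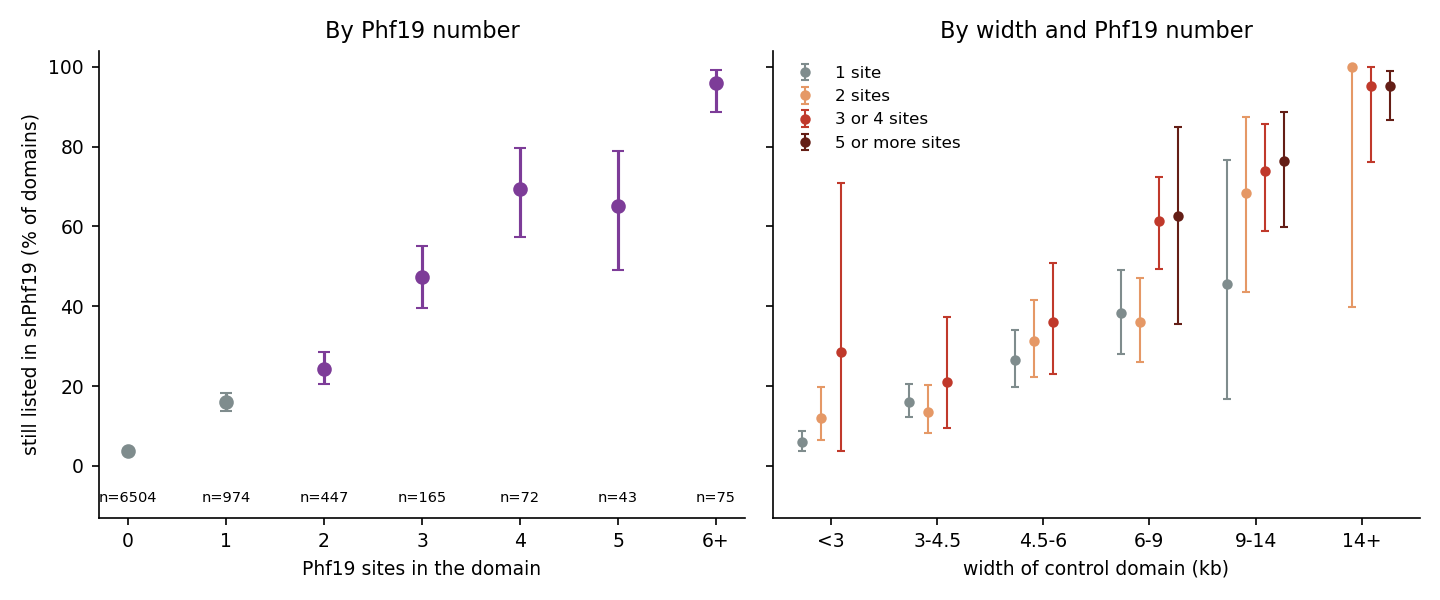
Percent of control H3K27me3 domains still listed in shPhf19, with exact 95% intervals, by Phf19 number (left; n is the number of domains) and by domain width in kb and Phf19 number (right; groups under 4 domains are not drawn). The left panel climbs from 24.4% at 2 sites to 96.0% at 6 or more. In the right panel the share is higher in wider classes, except that with 3 or 4 sites it is 28.6% of 7 domains under 3 kb and 21.1% of 38 from 3 to 4.5 kb, and intervals of different Phf19 number overlap in most width classes.

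At a given number of Phf19 sites, the domains still listed were the wider ones. With 2 sites the medians were 5437 bp still listed (interquartile range 4348 to 7738) and 3911 bp no longer listed (2933.5 to 5468.5). With 3 they were 7610.5 bp and 5116 bp, with 4 they were 8631.5 bp and 5588.5 bp, and with 5 or more 14927 bp and 11028 bp. Phf19 sites were also further apart in the domains still listed, with a median spacing of 1107.5 bp against 807 bp at 2 sites. Relative to domain length they were not: the median span at 2 sites was 34.2% still listed and 35.0% no longer listed. At exactly 2 sites the number per kb is set by width alone. Its medians, 0.368 in listed domains and 0.511 in the others, thus restate the width difference. At 5 or more sites the medians were 0.443 and 0.454. The share of the domain covered by Phf19 was alike at 2 sites, 26.2% (17.6 to 38.2) against 26.97% (19.6 to 36.0), and higher in listed domains at 5 or more, 41.9% (28.7 to 51.2) against 29.0% (22.5 to 39.2).

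The exceptions at high number were few. Of 75 domains with 6 or more Phf19 sites, 3 were no longer listed: chr3:99038256-99066880 (28.6 kb, 7 sites), chr19:59524965-59548307 (23.3 kb, 6 sites) and chr14:67846513-67853350 (6.84 kb, 6 sites). The 2 wide ones were sparsely occupied, with Phf19 over 17.9% and 16.02% of their length. The median for domains with 6 or more sites was 44.0% (34.4 to 52.6). The narrow one had 53.8%. In the domain on chromosome 3, 2 Phf19 sites and a group of 5 were separated by a step of 11192 bp, and Suz12 covered 52.6%. The next widest domains no longer listed were chr13:83853379-83870282 (16.9 kb, 5 sites), chr16:18617946-18632283 (14.3 kb, 4 sites) and chr13:53557590-53571019 (13.4 kb, 5 sites), with Phf19 over 15.9% to 22.2% of their length. Wide domains still listed could be as sparse. At 14 kb or more, domains with 3 or 4 Phf19 sites had a median Phf19 cover of 19.9%, and 20 of 21 were still listed. In chr18:37890549-37920416, also still listed, the cover was 9.06%.

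Where a domain was still listed, a minor part of it was. The shPhf19 sites covered a median of 28.4% of the 337 domains (interquartile range 18.8 to 37.4). The median hardly moved with Phf19 number, from 30.7% at 2 sites to 26.2% at 3, 25.4% at 4 and 30.9% at 5 or more. In domains with 1 Phf19 site it was 33.6% (22.6 to 43.7). The number of pieces grew, however: 92 of 109 listed domains with 2 sites had a single shPhf19 site, whereas 51 of 100 with 5 or more had at least 3, up to 10.

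Counted over the length of all domains, listed or not, shPhf19 sites covered 17.4% of the 5793 kb. The share was 9.20% at 2 Phf19 sites, 14.7% at 3, 19.7% at 4 and 28.2% at 5 or more, beside 6.90% at 1 site. This measure is per length, and it still differed with width at a fixed number: with 2 Phf19 sites it was 4.94% from 3 to 4.5 kb, 10.6% from 4.5 to 6 kb, 9.03% from 6 to 9 kb, 15.9% from 9 to 14 kb and 19.8% at 14 kb or more. Between 6 and 9 kb it was 10.9% with 1 Phf19 site, 9.03% with 2 and 17.4% with 3 or more. Between 3 and 4.5 kb it was 6.03%, 4.94% and 7.19%.

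The largest shares were found in domains of very different size. The top 5 were chr2:162484922-162486676 (1.75 kb, 2 Phf19 sites, 86.3% covered), chr7:137408444-137409761 (1.32 kb, 3 sites, 80.3%), chr11:74333309-74338133 (4.82 kb, 2 sites, 74.6%), chr4:139374092-139388921 (14.8 kb, 6 sites, 73.1%) and chr15:98924797-98929740 (4.94 kb, 2 sites, 70.6%). In the widest of these, on chromosome 4, Phf19 itself covered 71.1% of the domain, and 5 of its 6 sites, up to 3868 bp wide, overlapped an shPhf19 site.

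Inside the listed domains, the remaining sites lay over Phf19 and Suz12 more than over bases with neither. Of the Phf19 bases in a domain a median of 39.0% (interquartile range 23.9 to 59.7) lay on an shPhf19 site, against 20.6% (10.3 to 31.5) of the other bases. The median difference within a domain was 19.7 points (-2.40 to 39.1), and it was positive in 243 domains and negative in 94. Suz12 bases without Phf19 were in between at 31.6% (15.2 to 46.2). Bases with neither had a median of 2.33% (0 to 16.2), and in 145 of 328 domains none of them was on an shPhf19 site. This order of the medians, Phf19 above Suz12 alone above neither, held within 155 of the 327 domains that had all 3 kinds of bases, 47.4%. Listed domains with 1 Phf19 site had the same order of medians, with 46.1%, 44.2% and 6.70%.

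Against Suz12 bases alone the difference at Phf19 was smaller, with a median of 9.57 points (-12.2 to 28.6), positive in 208 of 336 domains and negative in 123. Within the middle 60% of the domain, where both Phf19 and the remaining sites concentrate, it was 8.97 points against all other bases, positive in 196 of 334 and negative in 129. Both comparisons were added after seeing the data. Neighbouring bases belong to the same sites, so these counts describe domains and carry no test.

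**Figure D5:**
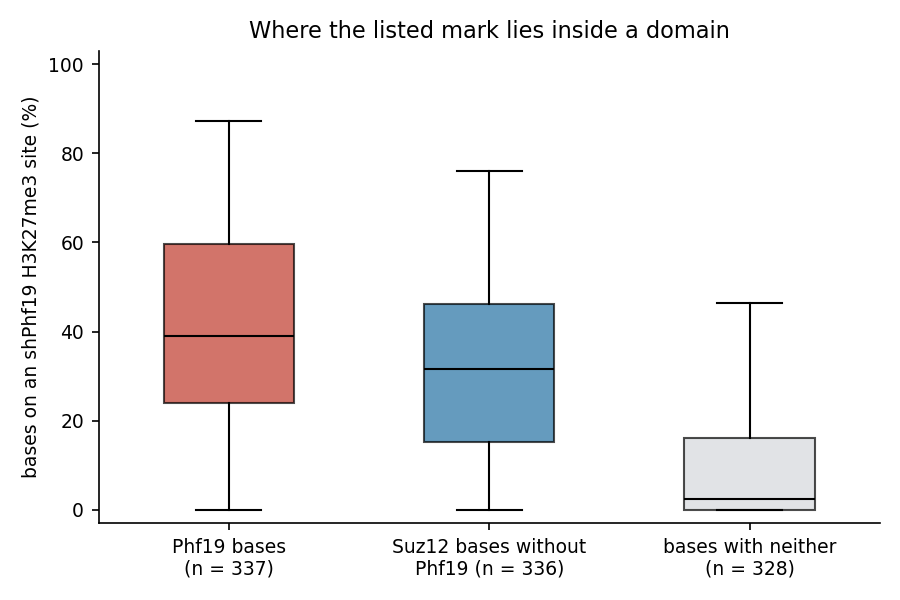
Percent of bases covered by shPhf19 H3K27me3 sites in each domain still listed, for Phf19 bases, Suz12 bases without Phf19, and bases with neither (n, domains with such bases). Boxes give the median and interquartile range and whiskers the 5th and 95th percentiles; the medians fall from 39.0% to 31.6% and 2.33%.

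Seen by site, 769 of 2438 Phf19 sites in these domains, 31.5% (29.7 to 33.4), overlapped an shPhf19 site, against 20.7% of the whole Phf19 list. In domains with 1 Phf19 site it was 12.5% (10.4 to 14.8). Among the domains described here it was 15.5% (13.2 to 18.1) at 2 sites and 49.4% (45.8 to 52.9) at 5 or more. In the domains still listed it was 766 of 1338, 57.3% (54.5 to 59.9). All of a domain's Phf19 sites overlapped an shPhf19 site in 80 of the 337, some did in 226, and none did in 31. The share of a listed domain's Phf19 sites was alike across numbers, 61.0% (54.2 to 67.5) at 2 sites and 56.1% (52.3 to 59.8) at 5 or more.

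Within listed domains, wide Phf19 sites and inner ones met the remaining mark more often. Of the narrowest class (up to 393 bp) 40.4% (33.9 to 47.0) did, and of the widest (over 1091 bp) 75.9% (71.2 to 80.2). In 112 domains the widest Phf19 site overlapped an shPhf19 site and the narrowest did not, while in 43 it was the other way round. A wide site also has more bases with which to overlap, and the part of this in the difference was not tested. In listed domains with 3 or more Phf19 sites, 60.3% of the inner sites (56.5 to 64.0) and 51.3% of the outermost (46.6 to 56.0) overlapped an shPhf19 site, a difference of 9.01 points (Newcombe 3.11 to 14.9). Several sites come from each domain, so the interval is too narrow by an unknown amount.

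The shPhf19 sites themselves were compact. The 597 on these domains had a median width of 1511 bp (1253 to 1963), and 12 of them reached past the domain they lay on. Suz12 was listed at 97.2% of them and Phf19 at 82.2%, with 245 holding 2 or more Phf19 sites. Their centres were a median of 524.5 bp from the nearest Phf19 centre (249 to 1023). The domains were chosen for their Phf19 sites, so this closeness to Phf19 is in part fixed by the rule. Phf19 covered 32.4% of the domains' summed length and Suz12 65.3%. The like shares over all shPhf19 sites are not given here. Few of the 597 lay near the ends of a domain: 10.6% and 10.7% of centres fell in its first and last 20%, and 27.5% in the middle 20%.

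The 3 widest domains did not all follow this pattern. In the HoxA domain, 60.2% of the Phf19 bases and 64.7% of the other bases lay on an shPhf19 site, so the remaining mark was spread over both. In the HoxB domain the shares were 40.3% and 32.2%. In the HoxD domain, chr2:74559320-74595016 (35.7 kb, 9 Phf19 sites), they were 63.2% and 31.0%. The fourth in width, chr18:37890549-37920416 (29.9 kb, 5 Phf19 sites), in the clustered protocadherin genes for cell adhesion proteins of neurons, went the other way. There 21.5% of the Phf19 bases and 36.5% of the others were covered, and 1 of its 5 Phf19 sites overlapped any of its 6 shPhf19 sites.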

How the data were processed

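The deposited files are 4 lists of sites with chromosome, start and end and no other value (no score, height or p-value was deposited by the authors). The submitters' processing notes name Bowtie 0.12.7, MACS 1.4.1 and build mm9 and say nothing of what each did. Thresholds and control libraries: not given in the sources used here. Phf19 sites are those present in both replicates, as the series' design text states. H3K36me3, H3K36me2 and IgG samples were not analysed here.

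Width is end minus start, and positions are printed as listed. Overlap needs at least 1 base; a control site counts as still listed if it overlaps an shPhf19 site. Shares carry exact Clopper-Pearson 95% intervals and differences Newcombe intervals. Width-weighted differences used 10 equal classes of all control sites, weighted by the domains described, with binomial standard errors. The code was tested on simulated data, and overlap counts equalled those of bedtools 2.31.1 at all 8280 control sites. Intervals came from scipy 1.17.1 and statsmodels 0.14.6, tables from pandas 2.3.3 and numpy 2.4.6 under Python 3.11.15, and plots from matplotlib 3.10.9.

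The domains and lists were chosen with earlier results of these data known. Domains were named by a rule: the 5 with the most Phf19 sites, the 5 widest, the 5 widest no longer listed, the 5 with the largest covered share, the 3 with the shortest and the 3 with the longest median spacing (3 or more Phf19 sites), and those without Suz12. The domain on chromosome 14 was named outside it after its values were seen. The lists carry no gene names and the reference tables are of another build, so no sequence is printed, gene lists were not used, and the few loci named are background knowledge of mm9, outside the rule.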

Additional observations from a re-analysis of the deposited data

How the results depend on the processing

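Of 66 alternatives to the values above, 45 kept inside the reported value's own interval (for the number of domains, within 1.5 times it) and 21 moved beyond it. Some alternatives could hardly move a value. Autosomes alone held 799 of the 802 domains. Requiring at least 500 bp of shPhf19 cover left the share still listed at 42.0%. None of the differences changed sign. Counts and shares, which make up the rest, cannot change sign. For the moved values the cause was not tested. Joining Phf19 sites within 500 bp gave 300 domains, all (100%) with Suz12, 95.2% of Phf19 sites on Suz12, 62.0% still listed, differences from 1 site of 41.3 points and, weighted by width, 23.6 points, and 42.0% of Phf19 sites on an shPhf19 site. A minimum of 3 Phf19 sites gave 355 domains, 100% with Suz12, a Suz12 cover of 69.3% and 64.2% still listed. The differences from 1 site were 48.3 points and, weighted by 10 width classes only, 29.98 points. Of the Phf19 sites, 40.6% lay on an shPhf19 site. Joining control sites within 1 kb gave a Suz12 cover of 61.0% and an shPhf19 cover of 22.7%. Requiring 50% of the shorter site gave 97.1% of domains and 94.6% of Phf19 sites with Suz12. With 6 fixed width classes the weighted difference was 9.12 points. The difference at Phf19 bases was 9.57 points against Suz12 bases and 8.97 points in the middle 60%. No paired analysis was possible because no list being compared has numbered replicates, and with a single Phf19 list made from both replicates none could be left out. Sites just under the peak threshold are not listed, and read depth is unknown.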

Other observations

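Some domains with several Phf19 sites came in groups. The like share for other control sites was not computed. Whether neighbouring domains are parts of one that the peak caller divided was not tested. Joining control sites within 1 kb gave 743 domains. Of the 802, 205 (25.6%) had another such domain within 20 kb, and 95 stretches held 2 or more. The largest held 4 domains each, at chr9:91253440-91283793 (30.4 kb, 14 Phf19 placements) and chr7:77467722-77517519 (49.8 kb, 11 placements). Next came 3 domains at chr6:52100952-52141804 with 16 placements, before the HoxA domain given above. These stretches were chosen after their values were seen.

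Every autosome held such domains, from 14 on chromosome 16 to 84 on chromosome 2, and the X chromosome held 3 of its 124 control sites. The share still listed was 57.7% of 52 domains on chromosome 5 and 23.5% of 34 on chromosome 10, while none of the 3 on the X was. The spread among chromosomes was not tested.

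The 2 domains without Suz12 were chr12:81105022-81111018 (5996 bp) and chr9:108332589-108335038 (2.45 kb). Each held 2 Phf19 sites, 545.5 bp and 505.5 bp apart between centres and no wider than 511 bp, and neither was still listed.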
